A study of Mus musculus with 309 samples.

Results

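The 34 genes described here are targets of p53, the transcription factor encoded by Trp53 in the mouse. They were chosen as a list of gene symbols, and all 34 were found among the 55291 symbols of a count table of mouse mammary tumours. All 34 also passed a filter on low counts that kept 28928 genes. In undamaged cells p53 is kept scarce by Mdm2, a ubiquitin ligase that marks it for degradation and is itself a p53 target. DNA damage stabilises p53, which binds paired decamer motifs near its targets and raises genes that halt the cell cycle, trigger cell death, repair DNA or adjust metabolism. Mammary tumours often lose p53, and genes on such lists also answer to other signals, so that their RNA is not a reading of p53 alone.

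Poly(A) RNA was sequenced from 309 frozen mammary tumours of 24 mouse models, which the series title places under triple-negative breast cancer. The 5 arms were untreated tumours, carboplatin plus paclitaxel, trametinib, erlotinib, and antibodies against PD1 and CTLA4. Carboplatin crosslinks DNA and paclitaxel stabilises microtubules, and the combination is called chemotherapy here. Trametinib inhibits the kinase MEK, erlotinib inhibits the receptor EGFR, and the antibodies block receptors that restrain T cells. Neither dose nor time of collection was given in the labels, nor were the strain, age or sex of the mice.

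The models were put into classes by their p53 status, which the labels do not state except in the name p53RB. The class called deleted had 12 models with both untreated and chemotherapy tumours. Of these, 2153, 2208, T11, T11-APOBEC and T12 descend, by general knowledge of these models, from mammary tissue of Trp53-null BALB/c mice. KPB1-A, KPB1-B, KPB25L and KPB25L-UV are taken, again by general knowledge, to carry Cre-driven deletions of Trp53 and Brca1. The models p53RB-426, p53RB-624 and p53RB-626 were classed from their names. What follows on the make-up of MMTV-Neu, MMTV-PyMT and C3-TAG is general knowledge too. The class called intact held MMTV-Neu and MMTV-PyMT, in which a mammary tumour virus promoter drives the oncogenes Neu and polyoma middle T and Trp53 is not engineered. Whether Trp53 had been mutated in those tumours was not analysed here. C3-TAG, in which the SV40 T antigen binds the p53 and RB proteins while the Trp53 gene remains, was kept apart, and E0771 was given no class. The host cells within a transplanted tumour have their own Trp53, and in bulk RNA fewer cells of a type and less RNA per cell cannot be told apart. With only 2 intact models, p53 status and whatever else sets MMTV-Neu and MMTV-PyMT apart, the oncogene included, cannot be told apart either.

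The library totals ran from 12.1 M to 226 M estimated counts with a median of 78.6 M (M, mega). Their median was 104 M with chemotherapy, 76.8 M without treatment, 39.3 M with trametinib, 34.3 M with erlotinib and 113 M with the antibodies. Levels are given in CPM, that is, counts relative to the scaled total of their library. Trp53 RNA did not mark the classes: untreated model means in the deleted class ran from 12.5 CPM in KPB1-A to 184 CPM in T12, with a median of 33.9 CPM. Untreated MMTV-Neu tumours were at 88.1, 90.4 and 95.9 CPM, and untreated MMTV-PyMT tumours were at 181, 156 and 188 CPM. Some deleted models thus lay above the intact ones. A count per gene does not say which exons the reads came from, so that Trp53 checks neither a deletion nor the classes. Of the members, Trp53cor1 and Ces2e were scarce, with median counts of 18 and 20 and with 20 and 15 tumours at a count of 0.

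RefSeq start sites on GRCm38.p6 were found for 26 of the 34 members, with 34 promoter windows of 250 bases upstream. The p53 consensus decamer, searched on both strands with every letter matched, was in the windows of 9 members, or 26.5% of their windows, against 7.13% of 32851 windows of all genes. A complete element, 2 decamers side by side with at most 2 mismatches over 20 bases, was in the windows of Cdkn1a and Ccng1 (5.88% of the member windows against 0.271% of all). The windows of 4 members with central roles are shown, from 5′ to 3′ on the gene's strand, with the decamers and complete elements in capitals. Cdkn1a is chr17:29090729-29090978 on the plus strand, Mdm2 is chr10:117710759-117711008, Ccng1 is chr11:40755287-40755536 and Bax is chr7:45466899-45467148, these 3 on the minus strand.
Cdkn1a: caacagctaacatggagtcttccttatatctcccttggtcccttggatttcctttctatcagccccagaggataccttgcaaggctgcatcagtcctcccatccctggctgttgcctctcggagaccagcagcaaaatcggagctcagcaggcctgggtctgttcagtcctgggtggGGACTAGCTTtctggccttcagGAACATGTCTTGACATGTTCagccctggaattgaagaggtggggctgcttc
Mdm2: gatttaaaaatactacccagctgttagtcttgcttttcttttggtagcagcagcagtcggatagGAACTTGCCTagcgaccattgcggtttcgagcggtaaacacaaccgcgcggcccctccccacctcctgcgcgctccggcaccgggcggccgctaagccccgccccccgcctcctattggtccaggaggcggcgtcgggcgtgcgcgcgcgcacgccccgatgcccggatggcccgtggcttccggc
Ccng1: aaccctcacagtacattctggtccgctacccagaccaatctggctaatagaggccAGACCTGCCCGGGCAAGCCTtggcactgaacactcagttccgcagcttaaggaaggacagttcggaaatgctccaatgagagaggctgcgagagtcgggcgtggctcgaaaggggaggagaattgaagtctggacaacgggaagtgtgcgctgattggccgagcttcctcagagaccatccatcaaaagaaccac
Bax: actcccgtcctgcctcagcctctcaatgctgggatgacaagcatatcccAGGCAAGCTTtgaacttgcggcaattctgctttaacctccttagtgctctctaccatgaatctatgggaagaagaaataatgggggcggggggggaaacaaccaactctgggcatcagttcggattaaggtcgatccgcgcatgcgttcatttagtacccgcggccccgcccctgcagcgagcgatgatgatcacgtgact
The complete element of Cdkn1a began 51 bases before the start that belongs to the window shown. That of Ccng1 began 195 bases before its start, and each had 1 mismatch to the consensus. Cdkn1a has another RefSeq start, whose window, chr17:29093519-29093768, held no decamer and no complete element. Mdm2 and Bax showed 1 decamer each. A match is a description of the letters and not a binding site, and elements in introns or farther upstream lie outside these windows.

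In the intact models most of the 34 genes were higher after chemotherapy. Over MMTV-Neu and MMTV-PyMT (6 treated and 6 untreated tumours), 25 members rose and 1 fell at an adjusted p under 0.05 (edgeR's quasi-likelihood test with Benjamini-Hochberg adjustment over all genes tested). Among all 23001 genes tested, 14.1% were called higher and 14.4% lower. The median log2 change of the members was 0.85 and that of all genes 0.01. For 23 members, every treated tumour lay above every untreated tumour in both models, as did 4.17% of all genes tested there. Within 1 model the same held for 28 members in MMTV-Neu (10.2% of all genes) and 27 in MMTV-PyMT (24.5%). In the deleted models, described further on, it held for 4 in p53RB-626 (5.65%) to 16 in p53RB-624 (13.3%). With 1 value per model in place of 1 per tumour, limma called 8 members, all higher, where 1.11% of all genes were called higher: Ccng1, Zmat3, Pmaip1, Phlda3, Polk, Eda2r, Apaf1 and Slc19a2. Without MMTV-PyMT, 5 of the 26 members called did not pass, namely Mdm2 (0.40, adjusted p = 0.0772), Sesn1, Plk2, Ercc5 and Ddit4. In all 22 members passed there, 1 of them not called over both models. Of all genes 5.48% passed there in either direction, against 28.5% over both models. Without MMTV-Neu, Fas, Tnfrsf10b, Btg2, Gdf15 and Pidd1 did not pass. In that case 23 members passed, 2 of them not called over both models, as did 31.8% of all genes.

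Cdkn1a, which encodes the cyclin-dependent kinase inhibitor p21, stood in MMTV-Neu at 61.3, 20.8 and 85.5 CPM without treatment and at 255, 468 and 202 CPM after chemotherapy. In MMTV-PyMT it stood at 54.7, 63.1 and 45.4 CPM without treatment and at 302, 196 and 256 CPM after it. The treated and untreated tumours did not overlap in either model. The log2 change was 2.34 (SE 0.294, adjusted p = 6.3e-11).

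**Figure D1:**
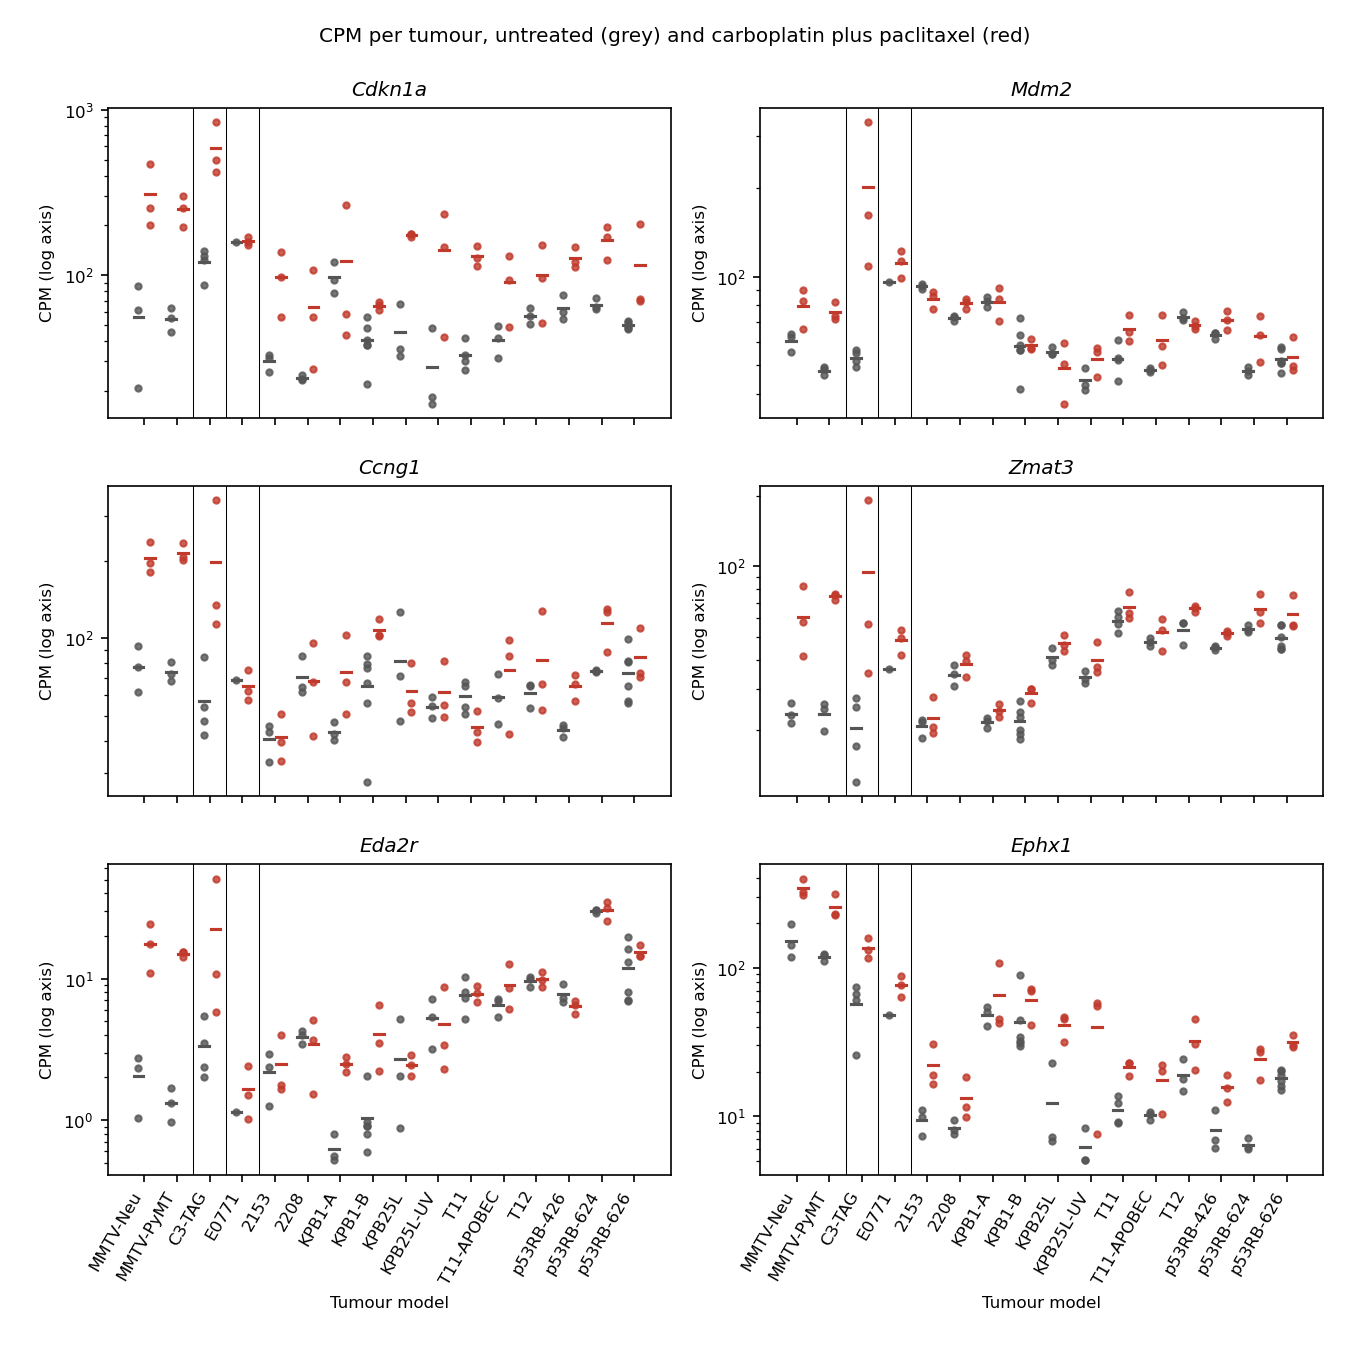
Level of 6 members in each untreated (grey) and chemotherapy (red) tumour by model, in CPM on a log axis; bars mark group means. Cdkn1a after chemotherapy reached 196 to 468 CPM in the intact models, while Mdm2 moved by less on the same kind of axis.

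The feedback genes moved by less. Mdm2 stood at 62.5, 55.5 and 63.6 CPM in untreated and at 82.9, 89.8 and 66.2 CPM in treated MMTV-Neu tumours. In MMTV-PyMT it stood at 49.1, 46.3 and 48.4 CPM without treatment and at 82, 72 and 73.2 CPM with it. The tumours did not overlap, although the margin in MMTV-Neu was narrow, and the log2 change was 0.53 (SE 0.0996, adjusted p = 1.11e-05). Ccng1, which encodes cyclin G1 and takes part in the control of Mdm2, stood at 77.5, 61.8 and 93.3 CPM in untreated and at 196, 237 and 181 CPM in treated MMTV-Neu tumours. In MMTV-PyMT it went from 72.4, 68.3 and 81.1 CPM to 202, 208 and 234 CPM. The groups were again apart, with a log2 change of 1.47 (SE 0.19, adjusted p = 2.02e-10). Zmat3, a zinc finger protein that binds RNA, went from 23.1, 21.5 and 26 CPM to 57.8, 82.6 and 41.5 CPM in MMTV-Neu. In MMTV-PyMT its untreated tumours were at 25.8, 19.9 and 24.7 CPM and its treated tumours at 76.2, 75.2 and 71.7 CPM. No treated tumour came near an untreated one, and the log2 change was 1.51 (SE 0.145, adjusted p = 4.1e-17).

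Of the genes of cell death, the receptors and Pmaip1 rose while Bax and Bbc3 did not pass the test. Eda2r, a receptor of the tumour necrosis factor family that binds ectodysplasin A2, was low without treatment, at 2.35, 1.04 and 2.76 CPM in MMTV-Neu and 1.32, 0.964 and 1.68 CPM in MMTV-PyMT. After chemotherapy it stood at 17.6, 24.2 and 11 CPM in MMTV-Neu and at 15.4, 14.3 and 15.4 CPM in MMTV-PyMT. Its log2 change of 3.30 (SE 0.366, adjusted p = 1.86e-13) was the largest among the 34 members. Pmaip1, which encodes the Bcl2 antagonist Noxa, went from 1.29, 2 and 0.973 CPM to 4.7, 3.65 and 3.36 CPM in MMTV-Neu and from 1.13, 1.41 and 2.63 CPM to 4.78, 3.98 and 5.88 CPM in MMTV-PyMT. Its treated tumours all lay above its untreated ones, with a log2 change of 1.45 (SE 0.292, adjusted p = 3.82e-05). Apaf1, the scaffold of the apoptosome, went from 11.8, 9.48 and 9.08 CPM to 20.2, 20.9 and 16.7 CPM in MMTV-Neu and from 8.15, 8.25 and 13.4 CPM to 17.6, 23.8 and 23.8 CPM in MMTV-PyMT. It rose by a log2 change of 1.02 (SE 0.146, adjusted p = 7.32e-09).

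Bax, which forms pores in the mitochondrial membrane, differed between the 2 intact models. In MMTV-Neu it stood at 37.7, 37.6 and 41.9 CPM without and at 65.3, 85.4 and 77.9 CPM with chemotherapy, and the model's own log2 change was 0.96 (SE 0.215, adjusted p = 0.000978). In MMTV-PyMT it stood at 96.8, 120 and 91.1 CPM without and at 96.3, 70.2 and 73.9 CPM with it, and the change was -0.36 (SE 0.213, adjusted p = 0.202). Over both models the log2 change was 0.30 (adjusted p = 0.119). Whether the models differed from each other was not tested. Bbc3, which encodes the Bcl2 antagonist Puma, had a log2 change of 0.39 (adjusted p = 0.127). Fas, the receptor of Fas ligand, went from 2.29, 6.13 and 2.37 CPM to 10.4, 7.97 and 9.18 CPM in MMTV-Neu and from 5.27, 9.27 and 6.75 CPM to 14.1, 9.86 and 12.4 CPM in MMTV-PyMT, and rose by a log2 change of 1.06 (SE 0.252, adjusted p = 0.00052). Tnfrsf10b, the receptor of the death ligand TRAIL, rose by 0.51 (adjusted p = 9.26e-05). Pidd1, whose product assembles a complex that activates caspase-2, rose by 0.79 (SE 0.132, adjusted p = 6.84e-07). Its tumours in MMTV-Neu went from 7.94, 6.85 and 8.14 CPM to 16.4, 27.3 and 15.8 CPM, while those in MMTV-PyMT were at 11.4, 10.1 and 10.9 CPM and then at 11.5, 11.9 and 14.1 CPM. The separation in MMTV-PyMT was thus slight. Aen, a nuclease of dying cells, rose by 0.91 (adjusted p = 1.14e-07) and Ei24, a protein of the endoplasmic reticulum, by 0.49 (adjusted p = 2.52e-06).

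Members with roles in growth restraint, signalling and stress were read next, and Ddit4 among them fell. Sesn2, a sestrin that restrains the kinase complex mTORC1, went from 13.5, 21.2 and 17.6 CPM to 40.1, 45 and 44.2 CPM in MMTV-Neu and from 22.3, 21.9 and 23.5 CPM to 56.5, 45.6 and 47.7 CPM in MMTV-PyMT. The log2 change was 1.23 (SE 0.134, adjusted p = 8.69e-14). Its relative Sesn1 rose by 0.41 (adjusted p = 0.0458). Phlda3, which competes with the kinase Akt for membrane lipids, went from 10.9, 9.64 and 14.1 CPM to 50, 76.9 and 50.9 CPM in MMTV-Neu and from 20.8, 33.1 and 22.9 CPM to 59.4, 45.4 and 54.6 CPM in MMTV-PyMT, with a log2 change of 1.71 (SE 0.215, adjusted p = 6.3e-11). Inka2, an inhibitor of the kinase Pak4, rose by 1.67 (SE 0.243, adjusted p = 1.43e-08), and Trp53cor1, a long noncoding RNA transcribed beside Cdkn1a, by 2.08 (SE 0.24, adjusted p = 4.67e-13). Trp53inp1, a stress protein that takes part in autophagy, rose by 1.46 (adjusted p = 2e-07) and Plk2, a polo-like kinase, by 0.60 (adjusted p = 0.0128). Gdf15, a secreted stress cytokine, went from 0.427, 1.15 and 1.25 CPM to 5.39, 6.03 and 1.45 CPM in MMTV-Neu and from 2.39, 1.63 and 0.75 CPM to 4.81, 2.38 and 3.44 CPM in MMTV-PyMT. It rose by 1.69 (SE 0.364, adjusted p = 0.000122), although 1 treated MMTV-PyMT tumour lay within the untreated range. Btg2, an antiproliferative factor, went from 18.2, 26.9 and 20.1 CPM to 47.8, 35.7 and 54.2 CPM in MMTV-Neu and from 56.3, 52.9 and 64.5 CPM to 71, 56.7 and 86.7 CPM in MMTV-PyMT, where the groups overlapped. It rose by 0.69 (SE 0.204, adjusted p = 0.00572).

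The member that fell was Ddit4, an inhibitor of mTORC1, with a log2 change of -0.71 (SE 0.223, adjusted p = 0.00944). In MMTV-PyMT it went from 325, 247 and 211 CPM to 90.4, 94.8 and 84.7 CPM, whereas in MMTV-Neu it was at 65.6, 43.9 and 67.8 CPM and then at 52.1, 92.5 and 47.5 CPM. MMTV-PyMT alone carried the fall: without that model the change was 0.12.

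Among the genes of DNA repair, Polk, a DNA polymerase that copies past lesions, rose by 0.93 (SE 0.132, adjusted p = 6.75e-09). It went from 18.9, 13.3 and 15.9 CPM to 28.4, 34.5 and 23.1 CPM in MMTV-Neu and from 10.4, 10.4 and 10.8 CPM to 22.4, 19.5 and 22.4 CPM in MMTV-PyMT. Ercc5, an endonuclease of nucleotide excision repair, rose by 0.31 (adjusted p = 0.00228). Xpc, which recognises damage in the same route, and Rrm2b, a subunit of ribonucleotide reductase, did not pass, at 0.22 (adjusted p = 0.163) and 0.40 (adjusted p = 0.0609). Among the metabolic genes, Ephx1, an epoxide hydrolase of detoxification, went from 142, 117 and 196 CPM to 306, 397 and 321 CPM in MMTV-Neu and from 111, 121 and 123 CPM to 312, 230 and 226 CPM in MMTV-PyMT. It rose by 1.14 (SE 0.211, adjusted p = 7.57e-06), and the thiamine transporter gene Slc19a2 rose by 1.05 (adjusted p = 4.44e-10). Dcxr, a carbonyl and xylulose reductase, and Ces2e, a carboxylesterase, each had a log2 change of 0.58 and did not pass. Plk3, another polo-like kinase, was at 0.00 (adjusted p = 0.992), and Perp, a membrane protein of desmosomes, at -0.42 (SE 0.352, adjusted p = 0.401).

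In the deleted models the members moved by less, and a smaller set of them stood out. Over 12 models with 36 treated and 43 untreated tumours, 20 members rose and Perp fell, while 21.7% of 18783 genes were called higher and 15.5% lower (37.2% in either direction). The median log2 change of the members was 0.20 and that of all genes 0.02. Tumours of 1 model were treated as independent in that test. With 1 value per model, limma called 0 members, and 0 genes of 28928, the lowest adjusted p being 0.0679. At an unadjusted p under 0.05 that same limma fit had 15 members higher and 0 lower, with 5622 of 28928 genes in either direction.

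Cdkn1a ran from 16.6 CPM (median 47.9, highest 120) in the untreated deleted tumours and from 26.9 CPM (median 112, highest 264) in the treated ones. The ranges overlapped over models. The log2 change was 1.32 (SE 0.113, adjusted p = 5.54e-21), and adjusted p = 0.0857 with 1 value per model. KPB25L was a clear case, with 66.9, 35.6 and 32.4 CPM untreated and 178, 177 and 170 CPM treated. KPB1-A was mixed, with 120, 77.5 and 94 CPM untreated and 264, 58.5 and 43.2 CPM treated. Single tumours thus decided the mean of KPB1-A.

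Ephx1 had the smallest p of the members, with a log2 change of 1.12 (SE 0.0861, adjusted p = 1.1e-24). Its untreated tumours ran from 5.05 to 89.3 CPM (median 11.1) and its treated ones from 7.65 to 108 CPM (median 27.7). In p53RB-624 it went from 6.26, 5.98 and 7.09 CPM to 17.6, 26.9 and 28.5 CPM, without overlap. In KPB25L-UV it went from 5.05, 5.11 and 8.37 CPM to 55.2, 7.65 and 57.4 CPM, where 1 treated tumour remained among the untreated ones. Dcxr rose by 0.96 (SE 0.0987, adjusted p = 1.97e-15), from a median of 7.51 CPM (range 2.59 to 21.3) to a median of 10.2 CPM (range 3.81 to 40.1). Inka2 rose by 0.86 (SE 0.106, adjusted p = 1.21e-11), from a median of 2.6 CPM to 5.94 CPM. Ces2e rose by 1.39 (SE 0.199, adjusted p = 3.16e-09) and Trp53cor1 by 1.12 (SE 0.183, adjusted p = 1.53e-07), both at low counts.

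Of the growth restraint, signalling and stress genes, some rose in the deleted models, while Sesn1, Plk2 and Ddit4 did not pass. Gdf15 rose by 1.19 (SE 0.176, adjusted p = 8.12e-09), from a median of 1.26 CPM (range 0.112 to 4.87) to 2.23 CPM (range 0.231 to 9.95). Btg2 rose by 0.55 (SE 0.0817, adjusted p = 1.16e-08), from a median of 20.7 CPM to 34 CPM. Trp53inp1 rose by 0.53 (adjusted p = 7.35e-07), Phlda3 by 0.42 (adjusted p = 1.76e-05) and Sesn2 by 0.26 (SE 0.0531, adjusted p = 2.39e-05). Of the death genes, Fas rose by 0.53 (SE 0.103, adjusted p = 1.38e-05), Pmaip1 by 0.45 (SE 0.105, adjusted p = 0.000291), Bax by 0.36 (SE 0.0599, adjusted p = 3.8e-07), Eda2r by 0.36 (SE 0.14, adjusted p = 0.0297) and Tnfrsf10b by 0.13 (adjusted p = 0.00928). Bax ran from 32.9 to 86.2 CPM (median 50.5) without and from 31.5 to 175 CPM (median 64.5) with chemotherapy. Ccng1, Zmat3, Slc19a2 and Mdm2 rose by 0.25 (adjusted p = 0.00374), 0.23 (adjusted p = 0.000577), 0.18 (adjusted p = 0.00696) and 0.10 (SE 0.0396, adjusted p = 0.029). The medians of Mdm2 were 56.8 CPM without and 65.3 CPM with chemotherapy, and the ranges overlapped almost fully.

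Perp fell by 0.44 (SE 0.146, adjusted p = 0.0115), with 1 deleted model, T11, called on its own. T11 tumours were at 0.324, 5.34, 40.2 and 4.75 CPM untreated and at 0.527, 0.769 and 1.06 CPM treated, so that the untreated tumours were spread widely. In T11 the mean of the epithelial marker list also changed, by -1.63, and that of the skin keratinocyte list by -4.58, on the log2 scale; their part in the change of Perp was not tested. The 13 members that did not pass lay between -0.09 (Rrm2b and Pidd1) and 0.18 (Bbc3), and among them Apaf1 was at -0.03 (adjusted p = 0.728) and Polk at 0.01 (adjusted p = 0.907).

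**Figure D2:**
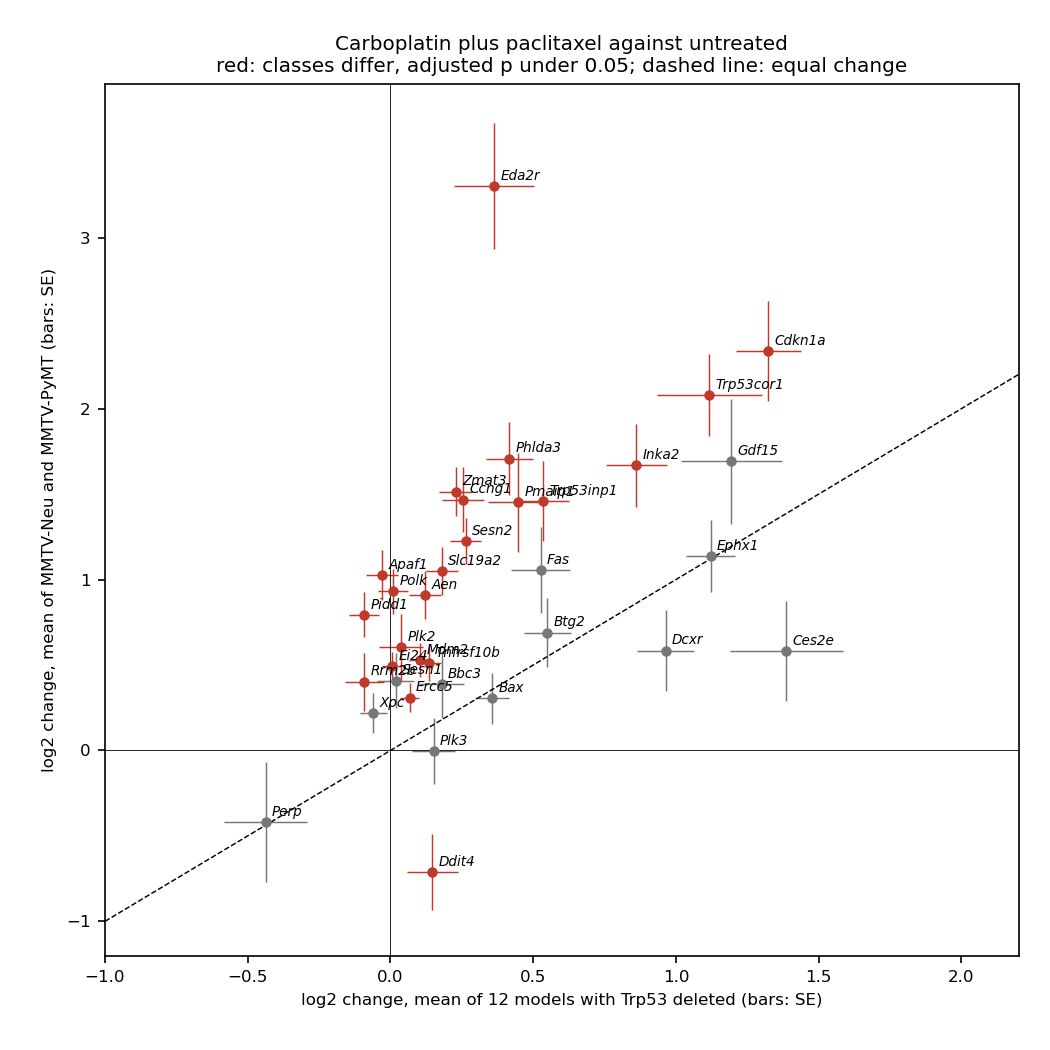
Log2 change with chemotherapy of each of the 34 members in the deleted models (x axis) and in the intact models (y axis), with bars of 1 SE; red marks members whose change differed between the classes. Eda2r stands highest, at 3.30 in intact and 0.36 in deleted models, and Ephx1 lies near the diagonal at 1.14 and 1.12.

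The change itself differed between the classes for 22 members: 21 had a larger log2 change in the intact models and 1, Ddit4, a smaller one. Among all 18559 genes tested, 18.7% had a larger and 19.3% a smaller change in the intact models (37.9% in either direction). The median difference was 0.51 for the members and 0.02 for all genes. Zmat3 had the smallest p, with a difference of 1.29 (SE 0.154, adjusted p = 1.26e-11). It was followed by Eda2r at 2.94 (SE 0.386, adjusted p = 3.95e-10), Apaf1 at 1.05 (SE 0.157, adjusted p = 2.37e-08), Sesn2 at 0.96 (SE 0.143, adjusted p = 2.42e-08), Polk at 0.92 (SE 0.142, adjusted p = 6.52e-08) and Pidd1 at 0.89 (SE 0.143, adjusted p = 1.95e-07). Ccng1 differed by 1.22 (SE 0.202, adjusted p = 4.33e-07), Phlda3 by 1.29 (SE 0.227, adjusted p = 1.73e-06), Mdm2 by 0.42 (SE 0.107, adjusted p = 0.000779) and Pmaip1 by 1.00 (SE 0.309, adjusted p = 0.00613). Inka2, Trp53inp1 and Trp53cor1 differed too, by 0.81 (adjusted p = 0.00942), 0.92 (adjusted p = 0.0015) and 0.96 (adjusted p = 0.0124). With 1 value per model, limma called 4 members, all with a larger change in the intact models: Zmat3, Eda2r, Polk and Apaf1, against 0.591% of all genes called in that direction.

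Some of these calls rested on 1 intact model. Without MMTV-PyMT, 8 of the 22 members did not pass, among them Cdkn1a (1.14, adjusted p = 0.0666), Mdm2 (0.29, adjusted p = 0.219), Pmaip1 (0.98, adjusted p = 0.143), Trp53inp1 (0.70, adjusted p = 0.195) and Ddit4 (-0.03, adjusted p = 0.972). The others were Plk2, Rrm2b and Ercc5. In all 15 members passed there, 1 of them not called with both models. Of all genes 8.38% passed there in either direction, against 37.9% with both models. Without MMTV-Neu, 7 did not pass, namely Cdkn1a (0.88, adjusted p = 0.0751), Phlda3 (0.64, adjusted p = 0.0839), Pidd1 (0.30, adjusted p = 0.205), Inka2 (0.43, adjusted p = 0.344), Trp53cor1 (0.16, adjusted p = 0.796), Tnfrsf10b and Ercc5. In that case 18 members passed, 3 of them not called with both models, as did 41.3% of all genes. Zmat3, Eda2r, Apaf1, Sesn2, Polk, Ccng1, Aen, Ei24 and Slc19a2 passed with either model left out.

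The comparator mattered for some members. The intact models had their treated and untreated tumours 343 and 442.3 library numbers apart on average, and whether these running numbers follow the date of sequencing is not stated in the labels. Some deleted models had larger gaps: 2071.5 in T11, 1515 in T11-APOBEC, 1502 in KPB25L, 1278 in KPB25L-UV and 813.5 in KPB1-B. In the 4 deleted models with arms within 100 numbers (KPB1-A, T12, p53RB-426 and p53RB-624), 6 members rose, where 1.89% of all genes were called higher and 2.85% in either direction. These were Cdkn1a (0.86, adjusted p = 0.00481), Ccng1 (0.59, adjusted p = 0.00347), Ephx1 (1.02), Trp53inp1 (1.19, adjusted p = 1.04e-07), Dcxr (0.74) and Inka2 (1.02). Zmat3 (adjusted p = 0.191), Mdm2 (adjusted p = 0.465) and Sesn2, at -0.02, were among the 15 that passed over 12 models and did not pass over these 4. No intact model lay within that distance. With erlotinib tumours in place of untreated ones as the comparator, 18 members had a larger and 5 a smaller change in the intact models, against 20.4% and 23% of all genes. Erlotinib tumours of the intact models themselves differed from untreated ones, with 13 members higher and 9 lower, as described further on. Their own changes enter these values. Of the 22 members called with untreated tumours, 15 were called in the same direction and 3 in the opposite one: Pmaip1 (-1.25), Trp53inp1 (-0.73) and Ddit4 (0.71). The other 4 did not pass, namely Ccng1 (0.02, adjusted p = 0.948), Mdm2 (0.20, adjusted p = 0.127), Apaf1 (-0.17, adjusted p = 0.385) and Rrm2b (-0.15, adjusted p = 0.54). Called with this comparator alone were Bbc3 (1.06, adjusted p = 1.41e-05), Xpc (0.58), Btg2 (-1.40, adjusted p = 3.31e-08), Plk3 (-1.48) and Sesn1 (-0.51). In all, 10 members changed sign, with Fas (-0.51), Gdf15 (-0.61) and Bax (0.28) among them and not called with either comparator. Within the intact models alone, Ccng1 had a change of 0.31 (adjusted p = 0.177) relative to erlotinib tumours.

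Cdkn1a differed by 1.01 (SE 0.304, adjusted p = 0.0048). Taken with 1 value per model, its mean log2 change was 2.40 in 2 intact and 1.23 (SD 0.664) in 12 deleted models. An exact two-sided permutation test over the 91 arrangements of the models gave p = 0.044, where 0.011 is the smallest these arrangements allow. That test and the limma fits with 1 value per model take the 14 models as independent. Names such as T11 and T11-APOBEC, or KPB25L and KPB25L-UV, point to related models, which neither method takes into account. Leaving out each of the 12 deleted models in turn gave exact permutation p-values from 0.0128 to 0.0769, under 0.05 in 4 of these 12. Without MMTV-Neu the difference was 0.97 and without MMTV-PyMT 1.37, where no p below 0.0769 is possible.

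For other members no difference was shown. Ephx1 differed by 0.02 (SE 0.227, adjusted p = 0.964), and its change was 1.12 in deleted and 1.14 in intact models. Perp was at 0.02 (adjusted p = 0.977), Bax at -0.05 (adjusted p = 0.83), Btg2 at 0.14 (adjusted p = 0.646), Bbc3 at 0.21 (adjusted p = 0.462), Gdf15 at 0.50 (adjusted p = 0.351) and Fas at 0.53 (adjusted p = 0.11). Dcxr and Ces2e had negative differences of -0.38 (adjusted p = 0.241) and -0.80 (adjusted p = 0.0676).

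**Figure D3:**
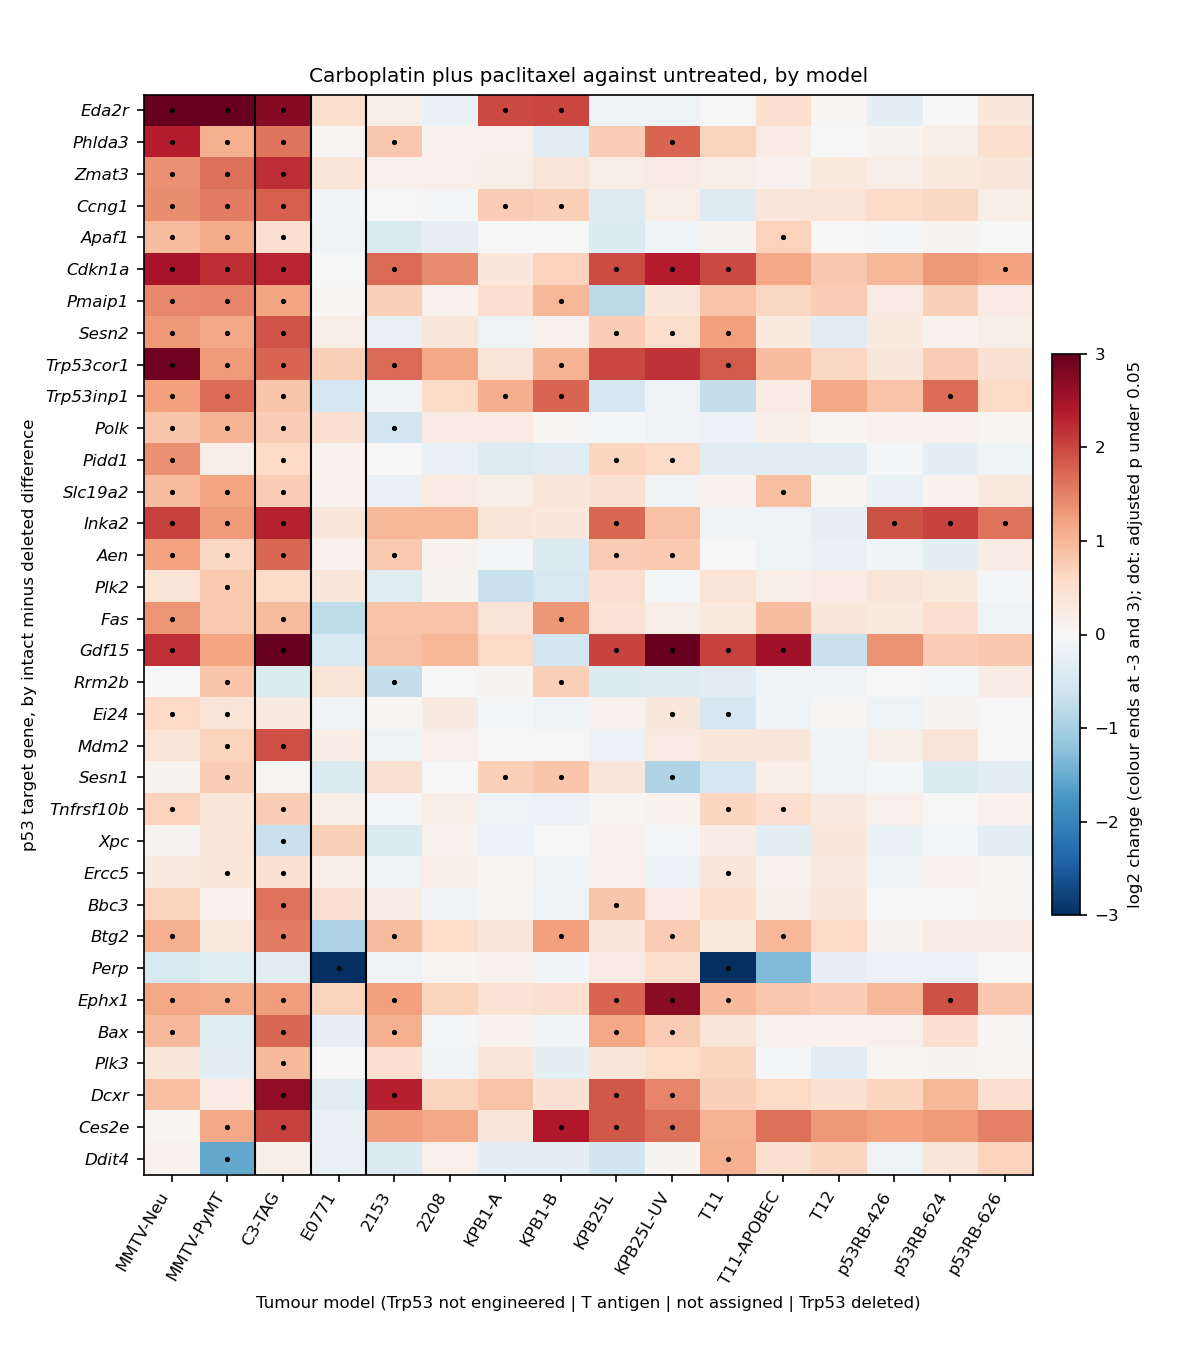
Log2 change with chemotherapy of each member (rows) in each of 16 models (columns); colour ends at -3 and 3, dots mark an adjusted p under 0.05, and lines separate intact models, C3-TAG, E0771 and deleted models. Dots fill most of the columns of MMTV-Neu, MMTV-PyMT and C3-TAG. The columns of 2208 and T12 have 0 dots, those of E0771 and p53RB-426 have 1 each, and those of p53RB-626 and p53RB-624 have 2 and 3.

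Model by model, 64 of 408 pairs of a member and a deleted model were called higher (15.7%), against 44 of 68 pairs in the intact models (64.7%). In MMTV-Neu 22 members rose, where 3.94% of all genes were called higher. In MMTV-PyMT 22 members rose too, where 14.9% of all genes were called higher. The numbers in deleted models ran from 0 in 2208 and T12 to 12 in KPB25L-UV, where 11.5% of all genes were called higher. All genes were called higher at 0.0699% in 2208 and 0.0176% in T12. At an unadjusted p under 0.05 edgeR had 5 members higher in 2208 and 8 in T12. In either direction that held for 1344 of 24323 genes in 2208 and 1134 of 22761 in T12. In KPB25L 11 members rose (13% of all genes), in KPB1-B 10 (10.1%), in T11 8 (9.33%), in 2153 8 (15%), in T11-APOBEC 5 (3.36%) and in KPB1-A 4 (9.32%). In p53RB-624, p53RB-626 and p53RB-426 there were 3, 2 and 1, where 0.025%, 1.01% and 0.0657% of all genes were called higher. Inka2 was among them in all 3 of these models, with log2 changes of 2.04, 1.62 and 1.92; Ephx1 and Trp53inp1 joined it in p53RB-624 and Cdkn1a in p53RB-626. In KPB1-A the called members were Ccng1, Trp53inp1, Sesn1 and Eda2r, and in T11-APOBEC they were Tnfrsf10b, Btg2, Gdf15, Apaf1 and Slc19a2.

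Cdkn1a was above 0 in all 16 models and called in 8, of which 5 were deleted (2153, KPB25L, KPB25L-UV, T11 and p53RB-626). In the deleted models its log2 change ran from 0.33 in KPB1-A to 2.35 in KPB25L-UV, and 11 of the 12 lay below both intact models. Zmat3 ran from 0.12 to 0.39 in the deleted models and was called in none of these 12, against 1.36 in MMTV-Neu and 1.66 in MMTV-PyMT. All 12 deleted models lay below both intact models for Mdm2, Ccng1, Zmat3, Pmaip1, Eda2r, Apaf1, Polk, Ei24 and Slc19a2, which are 9 of the 34, and for 4.62% of all genes tested. Ephx1 was called in 8 models, 5 of them deleted, and Gdf15 in 6, with the range in the deleted class reaching from -0.67 in T12 to 3.65 in KPB25L-UV. Eda2r was level in p53RB-624, at 29.1, 30.4 and 30.5 CPM untreated and 25.4, 31.3 and 34.7 CPM treated, while in KPB1-A it went from 0.562, 0.519 and 0.802 CPM to 2.77, 2.49 and 2.2 CPM. Its starting level therefore differed widely within the class.

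In E0771, with 1 untreated tumour, 0 members were called higher (0.128% of all genes; 1 at an unadjusted p under 0.05, edgeR). Cdkn1a was at 158 CPM in the untreated tumour and at 170, 158 and 152 CPM in the treated ones. Perp was the member called lower there, against a single untreated tumour.

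C3-TAG, whose comparisons with the classes were chosen after its values were seen, had 27 members higher and 1, Xpc, lower, where 18.5% of all genes were called higher. Its treated and untreated tumours lay 975.5 library numbers apart on average. Mdm2 stood at 49.2, 51.7, 56.4 and 54.8 CPM untreated and at 162, 335 and 109 CPM after chemotherapy. The treated tumours were all above the untreated ones and far from each other. The log2 change of Mdm2 exceeded that in the deleted models by 1.82 (SE 0.137, adjusted p = 4.07e-26) and that in the intact models by 1.40 (SE 0.164, adjusted p = 1.67e-12). Bax went from 46.2, 40.2, 54.9 and 43.4 CPM to 128, 187 and 146 CPM, which exceeded the change in the intact models by 1.43 (SE 0.248, adjusted p = 7.12e-07). Bbc3 exceeded it by 1.23 (adjusted p = 0.000867).

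Cdkn1a in C3-TAG went from 87.4, 130, 140 and 124 CPM to 421, 843 and 494 CPM, a change that was -0.05 (SE 0.464, adjusted p = 0.939) relative to the intact models and 0.96 (SE 0.384, adjusted p = 0.0391) relative to the deleted ones. In all, 21 members changed more and 1, Xpc, less than in the deleted models (15.6% and 20.7% of all genes). Relative to the intact models 12 changed more and 2, Xpc and Rrm2b, less (18.2% and 23.5% of all genes). The second treated tumour was the highest for Cdkn1a, Mdm2, Ccng1, Zmat3 and Eda2r. Without it, 20 members rose, as did 3754 of 23745 genes, with a change of 1.34 for Mdm2 and 1.92 for Cdkn1a. The tumours of C3-TAG also differed in their cells: the mean of the cytotoxic T and NK list was higher by 2.35 after chemotherapy and that of the epithelial list lower, at -1.997 on the log2 scale, and their part in the members' changes was not tested.

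Markers of other cells moved with chemotherapy in the classes as well. In the intact models all 10 fibroblast genes rose (median 1.48), as did 8 of 10 macrophage genes (0.94), 6 of 8 adipocyte genes (2.81) and 3 of 10 genes of cytotoxic T and NK cells (1.16). In the deleted models 0 of 10 fibroblast and 0 of 6 tested adipocyte genes rose. There 7 of 10 macrophage genes rose and 1 fell (0.36), and all 8 tested genes of cytotoxic T and NK cells rose (1.26). Endothelial genes rose too, 6 of 10 in the intact (0.559) and 7 of 10 in the deleted models (0.235). Of 9 skeletal muscle genes tested, 4 fell in the deleted models (-0.96), while 0 of 10 were called in the intact ones by edgeR (-1.76). Epithelial genes were not called in either class by edgeR, 10 being tested in intact and 8 in deleted models. The part of these cells in the members' changes was not tested. Mki67, a gene of dividing cells, fell by 0.33 (adjusted p = 0.000615) in the deleted models and was at -0.11 (adjusted p = 0.759) in the intact ones. Of 25 proliferation genes, Mki67 among them, 1 rose and 6 fell in the deleted models (median -0.055; 21.7% and 15.5% of all genes). In the intact models 1 rose and 1 fell (0.075; 14.1% and 14.4% of all genes). The mean of these genes changed by 0.741 in MMTV-Neu and by -0.615 in MMTV-PyMT, on the log2 scale.

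Other genes around p53 were read beside the members. Of 20 other p53 targets, 11 rose and 1 fell in the deleted models (median 0.19), where 21.7% of all genes were called higher and 15.5% lower. In the intact models 3 rose and 2 fell (median 0.04), near the 14.1% and 14.4% of all genes called there. Psrc1, a spindle protein, rose by 0.37 (adjusted p = 7.47e-05) in deleted and by 1.35 (adjusted p = 7.73e-09) in intact models. The 1 that fell in the deleted models was the phosphatase gene Ppm1d, named after its value was seen, at -0.10 (adjusted p = 0.0415). Triap1, an inhibitor of apoptosis, rose by 0.21 (adjusted p = 0.00018) in the deleted models. Ptprv, a receptor-like phosphatase, rose by 1.39 (adjusted p = 6.25e-05) and Kank3 by 0.71 (adjusted p = 0.00142) in the intact models. Rps27l, a ribosomal protein related to Rps27, went opposite ways, at 0.45 (adjusted p = 7.49e-08) in deleted and -0.59 (adjusted p = 0.00691) in intact models, with a difference of -1.05 (adjusted p = 5.03e-06). Fdxr, ferredoxin reductase, was the other gene that fell in the intact models and is named after its values were seen; it was at 0.28 (adjusted p = 0.000233) in deleted and -0.55 (adjusted p = 0.00517) in intact models. Of 12 genes of p53 and its regulators, 0 rose and 1 fell in the deleted models (edgeR), which was the checkpoint kinase gene Chek1 at -0.33 (adjusted p = 0.00039). The kinase genes Chek2 and Atr were at -0.11 and -0.12, and neither passed the test. In the intact models Rb1, the retinoblastoma gene, rose by 1.59 (adjusted p = 4.26e-11) and Brca1 by 0.73 (adjusted p = 0.00154), while Trp53 fell by 0.42 (SE 0.127, adjusted p = 0.0069). Trp53 was at -0.08 (adjusted p = 0.241) in the deleted models.

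**Figure D4:**
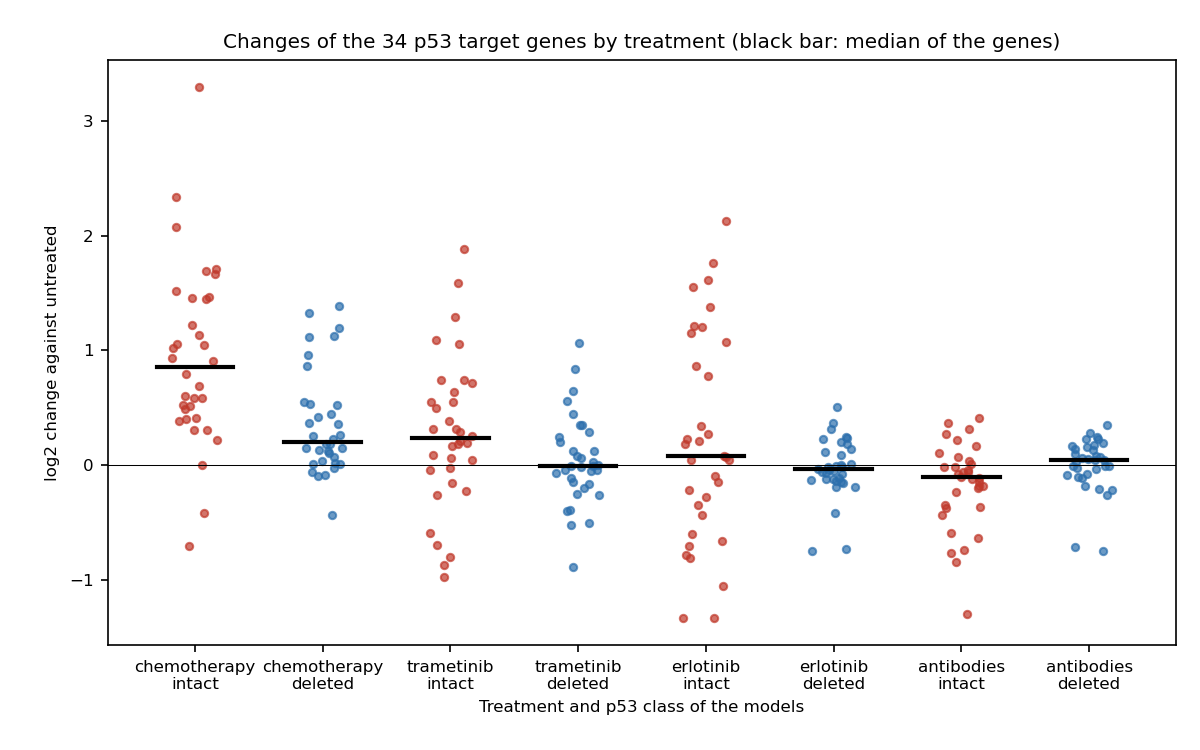
Log2 change of the 34 members (points) with each treatment in deleted and intact models; black bars mark the medians. The median with chemotherapy was 0.85 in the intact models, and the medians with the other treatments lay between -0.11 and 0.23.

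The other treatments were compared with the same untreated tumours, so that their values share those tumours with chemotherapy and stand here side by side. With trametinib 9 members rose and 10 fell in the deleted models, where 21.2% of all genes were called higher and 25.4% lower (46.5% in either direction). MMTV-Neu and MMTV-PyMT together had 13 members higher and 5 lower (21.2% and 25.1% of all genes). The change was larger in the intact models for 14 members and smaller for 5, with 25.9% and 28.5% of all genes (54.4% in either direction). Ephx1 rose by 1.07 (SE 0.0869, adjusted p = 1.17e-23) in the deleted models, where the median tumour stood at 31.8 CPM against 11.1 CPM untreated. Its change in the intact models was 0.25 (adjusted p = 0.333), and the classes differed by -0.81 (adjusted p = 0.00124). Pidd1 fell in both classes, by 0.98 (adjusted p = 4.57e-10) in intact and to a median of 8.52 CPM from 10.9 CPM in deleted models. Inka2 fell by 0.89 (adjusted p = 3.77e-10) in the deleted models.

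The members that fell with trametinib in the intact models were Pidd1, Bax, Bbc3, Tnfrsf10b and Ddit4. Bbc3 stood at 4.35, 7.17 and 8.55 CPM in MMTV-Neu and at 7.51, 11.1 and 8.28 CPM in MMTV-PyMT, all below the untreated tumours of the same model, and fell by 0.87 (adjusted p = 0.000101). The change of Bbc3 differed between the classes by -1.31 (adjusted p = 5.83e-08) and that of Bax by -0.72 (adjusted p = 6.95e-05). Bax fell by 0.59 (adjusted p = 0.000481) in the intact models. The others with a smaller change there were Ephx1, Pidd1 and Ddit4.

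Ccng1 and Trp53inp1 rose with trametinib in the intact models without Cdkn1a moving as far. Ccng1 stood at 202, 161 and 198 CPM in MMTV-Neu and at 158, 225 and 166 CPM in MMTV-PyMT, all above the untreated tumours, with a log2 change of 1.29 (adjusted p = 1.74e-09) against -0.07 (adjusted p = 0.43) in deleted models. Trp53inp1 stood at 55.4, 155 and 119 CPM in MMTV-Neu and at 178, 139 and 133 CPM in MMTV-PyMT, again above the untreated tumours, and the classes differed by 1.60 (adjusted p = 1.17e-08). Cdkn1a stood at 174, 65.8 and 65.6 CPM in MMTV-Neu and at 139, 55.6 and 46.1 CPM in MMTV-PyMT, overlapping the untreated tumours, with a change of 0.71 (adjusted p = 0.0282). All 25 genes of a proliferation list fell in the deleted and 24 of them fell in the intact models (medians -0.53 and -1.36). Fibroblast genes rose with trametinib, 9 of 10 in the intact (median 1.43) and 7 of 10 in the deleted models (0.85), as did 7 of 8 adipocyte genes in the intact models (2.62). All 10 endothelial genes (-0.62) and 7 of 10 skeletal muscle genes (-1.21) fell in the deleted models. The part of these genes' cells in the members' changes was not tested.

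With erlotinib 1 of 33 members tested rose and 2 fell in the deleted models (1.23% and 2.35% of all genes, 3.58% in either direction), and 13 rose and 9 fell in the intact ones (24.6% and 28.9%, 53.5% in either direction). The change was larger in the intact models for 13 members and smaller for 8 (27.8% and 28.9% of all genes, 56.6% in either direction). In the deleted models Sesn2 rose by 0.31 (adjusted p = 1.65e-05) while Perp fell by 0.73 (adjusted p = 0.00455) and Inka2 by 0.41 (adjusted p = 0.0267). Pmaip1 rose in the intact models by 2.13 (adjusted p = 1.58e-10), with 3.15, 27.4 and 13.6 CPM in MMTV-Neu and 2.62, 4.12 and 3.16 CPM in MMTV-PyMT. Apaf1 rose by 1.08 (adjusted p = 7.13e-11), with 13.5, 49.4 and 29.3 CPM in MMTV-Neu and 17.4, 15.4 and 11.2 CPM in MMTV-PyMT, where 1 treated tumour lay within the untreated range. The differences between the classes were 2.26 (adjusted p = 2.01e-10) for Pmaip1 and 1.22 (adjusted p = 7.81e-12) for Apaf1. Cdkn1a had a change of -0.09 (adjusted p = 0.804) in the intact models, where MMTV-Neu tumours spread from 25.9 to 187 CPM. In the same tumours all 10 fibroblast genes rose (median 2.58), as did all 10 macrophage genes (2.44), 9 of 10 skeletal muscle genes (3.899), all 8 adipocyte genes (4.43), 9 of 10 genes of cytotoxic T and NK cells (2.30) and 7 of 10 endothelial genes (0.71). Of the proliferation list 24 of 25 genes fell (-2.004), as did 5 of 10 epithelial genes (-0.56), and the part of these cells was not tested.

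With the antibodies 1 member rose and 5 fell in 8 deleted models (14.3% and 10.3% of all genes). In the intact models 0 rose and 3 fell (3% and 4.65% of all genes). At an unadjusted p under 0.05 edgeR had 1 member higher and 6 lower there, with 4959 of 22921 genes in either direction. Inka2 fell by 0.75 (adjusted p = 7.71e-06) and Eda2r by 0.72 (adjusted p = 0.00124) in the deleted models, where Ddit4 rose by 0.35 (adjusted p = 0.00996). Ccng1, Zmat3 and Rrm2b fell there by 0.26, 0.18 and 0.22 (adjusted p = 0.0238, 0.0425 and 0.0373). Ephx1 fell in the intact models by 0.85 (adjusted p = 0.00404), to 75.2, 79.6 and 67.7 CPM in MMTV-Neu and 76.9, 81 and 67.2 CPM in MMTV-PyMT, all below the untreated tumours. Tnfrsf10b and Trp53cor1 fell with it, by 0.35 (adjusted p = 0.0293) and 1.30 (adjusted p = 0.00117). The change was smaller in the intact models for 6 members and larger for 0 (11.6% and 8.13% of all genes, 19.7% in either direction). At an unadjusted p under 0.05 edgeR had 8 smaller and 3 larger, with 6449 of 19439 genes in either direction. The classes differed by -0.99 (adjusted p = 0.000992) for Ephx1 and by -1.45 (adjusted p = 0.00126) for the scarce Trp53cor1. In the deleted models all 10 skeletal muscle genes fell with the antibodies (median -3.52), as did 2 of 5 adipocyte genes tested (-2.25), and 5 of 8 tested genes of cytotoxic T and NK cells rose (0.95). With the antibodies in the intact models, 1 of 10 endothelial, 1 of 10 macrophage and 1 of 25 proliferation genes rose. The part of these cells was not tested.

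**Figure D5:**
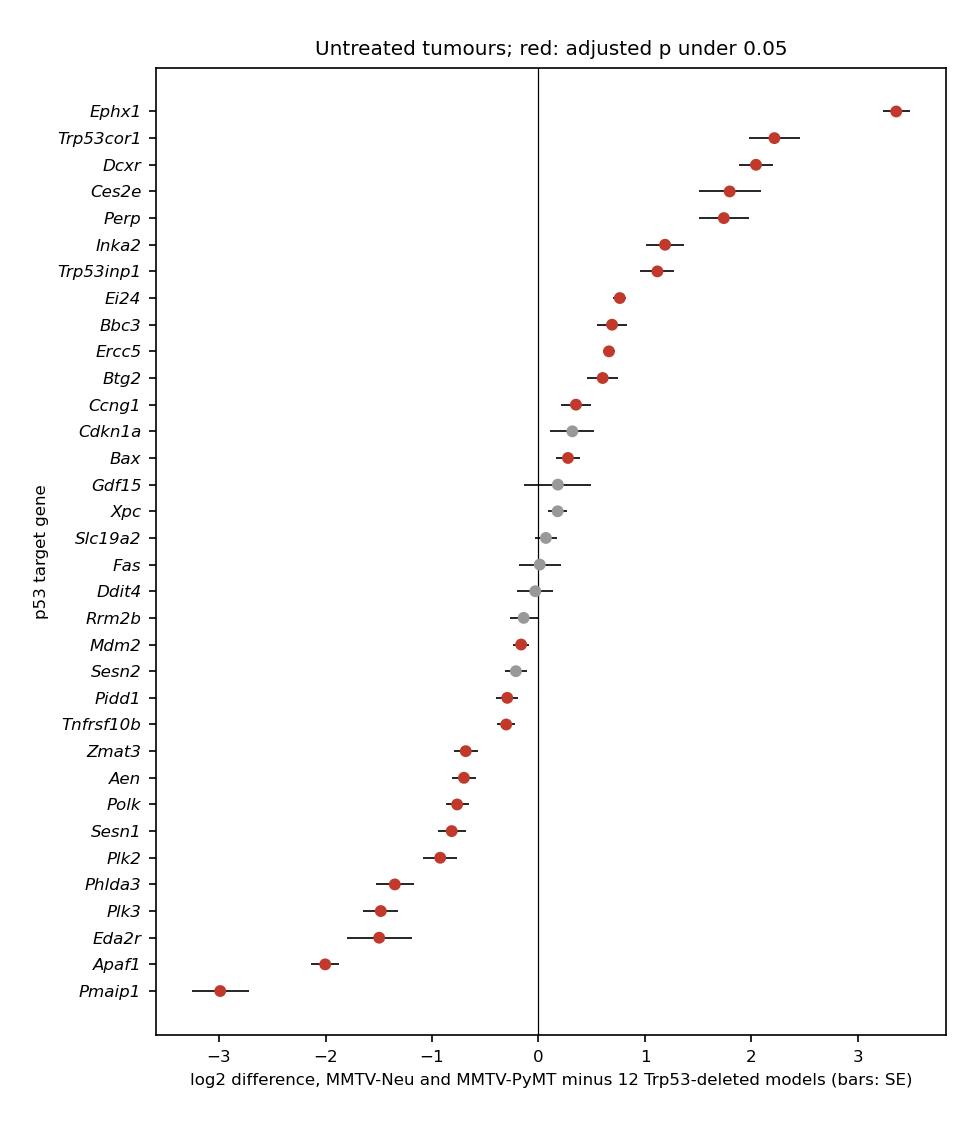
Log2 level of each member in untreated intact minus untreated deleted models, with bars of 1 SE; red marks an adjusted p under 0.05. The values run from -2.99 for Pmaip1 to 3.36 for Ephx1.

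Without treatment the classes already differed, with 13 members higher and 13 lower in the intact models (49 tumours of 14 models). Of all 19108 genes tested 37.6% were higher and 36.9% lower (74.5% in either direction), so that the members' share was near that of all genes. Ephx1 was higher by 3.36 (SE 0.128, adjusted p = 4.09e-67), and Trp53cor1, Dcxr and Perp were higher by 2.22, 2.04 and 1.74. Pmaip1 was lower, at -2.99 (SE 0.266, adjusted p = 1.62e-22), as were Apaf1 at -2.003 (adjusted p = 1.09e-35), Eda2r at -1.50 (adjusted p = 3.93e-06), Plk3 at -1.48, Phlda3 at -1.35 and Zmat3 at -0.68. Cdkn1a differed by 0.32 (adjusted p = 0.157), Mdm2 by -0.16 (adjusted p = 0.0462) and Ccng1 by 0.35 (adjusted p = 0.0158). Of the members named here with a larger rise in the intact models, Pmaip1, Apaf1, Eda2r, Phlda3, Zmat3 and Mdm2 started lower there. Trp53cor1 and Ccng1 started higher, and Cdkn1a did not pass the test. In the same comparison all 10 fibroblast and all 10 endothelial genes and 9 of 10 macrophage genes were lower in the intact models, and 6 of 8 epithelial genes tested were higher. Their part in the members' differences was not tested.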

How the data were processed

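Poly(A) RNA of 309 mouse mammary tumours was measured. Per the submitters' processing notes, which name mm10 as the build, the authors used Salmon together with STAR, Picard and SAMtools; no version or setting is stated there. The deposited table holds Salmon's estimated counts, of which 8.35% of values were not whole. A second table deposited by the authors holds a scaled signal, found to be the estimated count over the 75th percentile of the library's values above 0, times 1000; it was used for that check and in 1 alternative, a limma fit to its log2 values. Strandedness is not stated, and Cdkn1a, Plk3, Ei24, Polk, Rrm2b, Apaf1 and Trp53cor1 overlap a gene on the other strand in the annotation, whose reads cannot be told apart. Ephx1, Bax, Fas, Sesn1, Sesn2 and Rrm2b overlap an annotated gene on their own strand.

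Columns were joined to tumours by library name, and groups were taken from the titles. In 3 tumours titled KPB25L-UV with chemotherapy, the library name begins with KPB25L; the title was followed. Replicates are separate tumours: 0 of 355 pairs were identical. Estimated counts were rounded, filtered with filterByExpr, scaled by TMM (trimmed means of M values) and fitted in 1 model with a mean per group by edgeR 4.0.16 (limma 3.58.1, R 4.3.3), all tumours sharing 1 estimate of the spread. Log2 CPM used a prior count of 2. Class values weigh models equally, and a gene at 0 in a whole group of the comparison was not tested. Quasi-likelihood p-values were adjusted by Benjamini-Hochberg over all genes tested and called under 0.05; they measure the spread between tumours, not between models. The test was checked on simulated counts. Counting error at these depths, 12.1 M to 226 M, is small except for scarce members. Alternatives used DESeq2 1.42.0, other scalings and filters, 1 value per model, other comparators and left-out tumours or models. Figures were drawn with Python 3.11.15 and matplotlib 3.10.9.

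The members and lists were chosen with earlier results of these data known. Values by tumour or group are given for a fixed set of members, for those of smallest p in each comparison, for Trp53 and Mki67, and for the 3 genes with the smallest p from each of 2 pathway lists in intact and deleted models.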

Additional observations from a re-analysis of the deposited data

Results flagged for a closer look

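The fixed set of members was read with those of smallest p for chemotherapy in the deleted models or for the difference between classes. Among these, 11 changed differently in intact and deleted models. Of the 11, 6 were picked for the smallest p in that same difference, so that their passing adds nothing. Over all 34 members 22 differed. The differences, intact minus deleted on the log2 scale, were 1.01 for Cdkn1a, 0.42 for Mdm2, 1.22 for Ccng1, 1.29 for Zmat3, 1.00 for Pmaip1, 0.96 for Sesn2, 0.92 for Polk, 0.89 for Pidd1, 2.94 for Eda2r, 1.05 for Apaf1 and 0.81 for Inka2. Each passed edgeR's test of the difference itself.

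In groups of 4 or 6 tumours, 6 of 72 combinations of a member and a group had 1 tumour set far from the others by Dixon's criterion, which chance gives in about 1 in 20 groups. In untreated C3-TAG the second tumour lay below the others for Apaf1, at 25.7 CPM, and for Inka2, at 5.46 CPM. In untreated KPB1-B the second tumour lay below the others for Ccng1, at 27.6 CPM, and above them for Ephx1, at 89.3 CPM, and Inka2, at 7.8 CPM. In untreated T11 the first tumour lay above the others for Sesn2, at 21.1 CPM.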

How the results depend on the processing

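Chemotherapy counts of members called (21 in deleted models, 26 in intact, 22 for the difference) stayed within 1.5 times of these under other scalings, other filters, DESeq2 and each left-out model. With 1 value per model (limma) they were 0, 8 and 4, where 0%, 1.52% and 0.982% of all genes were called. The other counts of that fit were 8 (deleted), 7 (intact) and 10 (difference) for trametinib, and 0, 10 and 8 for erlotinib. They were 0, 0 and 0 for the antibodies, and 5 without treatment. Over the alternatives, genes called numbered 2434 to 8723, 5375 to 10321 and 5746 to 9922 for trametinib. For erlotinib they numbered 0 to 870, 7313 to 11877 and 6555 to 10136, and without treatment 3774 to 14372. For the antibodies they numbered 0 to 5427, 68 to 2761 and 87 to 4187. At an unadjusted p under 0.05 the limma fit had 15 members for chemotherapy in deleted models and 4 for erlotinib there. Of all 28928 genes it had 5622 and 1296. For trametinib that limma fit had 18, 13 and 14 members, with 7921, 9063 and 9404 genes. For erlotinib it had 12 members in intact models and 15 for the difference, with 10686 and 10229 genes. Its lowest adjusted p over all genes was 0.963 for erlotinib and 0.116 for the antibodies, both in deleted models. For the antibodies it had 5, 4 and 6 members, with 4425, 3174 and 4504 genes. With near library numbers the deleted models gave 6 (chemotherapy, 2.85% of all genes), 7 (trametinib) and 0 (erlotinib). Over all deleted models edgeR had 12 members for erlotinib at an unadjusted p under 0.05, with 3125 of 17975 genes. Without p53RB-426 the antibodies had 3 in deleted models, and without MMTV-PyMT 1 in intact models and 1 for the difference; erlotinib had 6 in deleted models without KPB1-A and 5 without KPB25L. The cause was not tested. Where a count here or in the next paragraph has no share of all genes beside it, it shows only how the number called moved. It does not say whether the members were called more often than all genes.

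Leaving out replicates gave 16 to 22 (deleted), 23 to 30 (intact) and 16 to 24 (difference) for chemotherapy, 15 to 19, 16 to 19 and 17 to 19 for trametinib, 1 to 3, 17 to 22 and 14 to 21 for erlotinib, 2 to 7, 0 to 3 and 2 to 6 for the antibodies, 24 to 26 without treatment, 91 to 142 over single models (135 in all) and, chosen after seeing the data, 20 to 30 for C3-TAG. In those fits of C3-TAG 8480 to 10525 genes were called. The difference of Cdkn1a over models ran from 0.97 to 1.37, an alternative also chosen after seeing the data.

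With erlotinib tumours as the comparator, signs turned, called or not, for 9 members in intact models: Apaf1 (-0.05), Btg2 (-0.87), Ddit4 (0.62), Fas (-0.16), Perp (0.92), Pmaip1 (-0.68), Trp53inp1 (-0.30), Sesn1 (-0.46) and Rrm2b (-0.38). In deleted models they turned for Perp (0.29), Sesn2 (-0.05), Bbc3 (-0.07), Apaf1 (0.12) and Ddit4 (-0.09). For the difference they turned for Apaf1 (-0.17), Btg2 (-1.40), Ddit4 (0.71), Pmaip1 (-1.25), Trp53inp1 (-0.73), Fas (-0.51), Gdf15 (-0.61), Bax (0.28), Sesn1 (-0.51) and Rrm2b (-0.15). Sesn2 was -0.02 in near deleted models, and Ddit4 was 0.12 in intact models without MMTV-PyMT. Genes called with chemotherapy over all genes numbered 6989 (deleted), 6547 (intact) and 7042 (difference). Over the alternatives they numbered 0 to 9671, 441 to 8698 and 284 to 7777. No paired analysis was possible because the labels give library numbers but no replicate numbers, and numbers in accession order do not pair tumours.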

Other observations

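Mdm2 was high in model 2224, which had no untreated tumours. It is taken, by general knowledge and not from the labels, to descend from Trp53-null tissue. Its 11 tumours, over 4 treatments, ran from 673 to 1160 CPM (median 984), while the 298 tumours of all other models ran from 34 to 335 CPM (median 58.3), the highest being a C3-TAG tumour. The ratio of the medians was 16.9. In the same 11 tumours Cdkn1a was at 14.4 to 31.2 CPM (median 20.5) and Trp53 at 96.6 to 182 CPM (median 120), against medians of 52.8 CPM and 80.3 CPM elsewhere. Both ranges lay within those of the other models.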
